A study of Mus musculus with 18 samples.

Results

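The Hox cluster genes are the 39 coding genes whose symbol is Hoxa, Hoxb, Hoxc or Hoxd followed by a paralogue number, out of 53672 genes listed in each deposited table. Membership was set by symbol alone, although the family was chosen with earlier results of these data known. All 39 were found: 11 in HoxA, 10 in HoxB, 9 in HoxC and 9 in HoxD. RNA had been sequenced from mouse E14TG2a embryonic stem cells (ESCs) that were Hdac1/2 lox/lox, in which 4-hydroxytamoxifen (OHT) triggers deletion of both endogenous deacetylase genes. Each of 3 lines also carried a stably integrated piggyBac rescue transgene for HDAC1, either unaltered (HDAC1-WT) or as the mutant HDAC1–E63R or HDAC1–Y48E, and each mutant has a single substitution on the surface that binds corepressor partners. The 6 groups, each line without and with 1 µM OHT, hold 3 libraries each (18 libraries), and ask how the rescue protein alters gene expression once the endogenous enzymes are gone. The untreated cells of every line therefore still carried endogenous Hdac1 and Hdac2 as well as the transgene. The sample labels give 5 days for both arms, while the methods describe a pulse of OHT followed by further culture. Whether a line was a single clone or a pool is not given in the sources used here. The 3 libraries of a group are described as biological replicates, but how their cultures were kept apart is not given there either, so p-values measure the spread between these libraries. A line and its rescue construct cannot be told apart.

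Hox genes encode homeodomain transcription factors that assign position along the body axis. Within a cluster the genes lie in the order in which they are used, from those of low paralogue number, which act early and towards the head, to those of high paralogue number, which act late and towards the tail and in the limbs. In ESCs the clusters are held largely silent by Polycomb complexes, and retinoic acid, Cdx factors and MLL methyltransferases take part in opening them. HDAC1 and HDAC2 are the catalytic subunits of several corepressor complexes.

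Counts on genes ranged from 9019615 to 11454638 per library, at which 3 counts, the upper limit that a count of 0 allows, correspond to 0.248 to 0.343 CPM (counts scaled to a common library size with TMM factors). Such limits and the intervals below cover counting error only, since repeated reads of one molecule are counted separately where no identifier marks them. Hdac1 itself averaged 205 and 173 CPM in HDAC1-WT cells without and with OHT, 105 and 122 in HDAC1–E63R cells, and 101 and 111 in HDAC1–Y48E cells. Its counts could hold reads of the transgene, and neither Hdac1 nor Hdac2 was called after OHT in any line, so this level does not check the labels. The 8 ESC markers examined summed to 6804 to 7103 CPM in untreated and 7045 to 7341 CPM in OHT-treated HDAC1-WT cells. They summed to 4505 to 7262 CPM (median 4866) in untreated and 3744 to 4028 CPM in OHT-treated HDAC1–E63R cells, and to 5287 to 5411 CPM and 2332 to 2460 CPM in HDAC1–Y48E cells, so that the untreated HDAC1–Y48E libraries, as well as both OHT-treated mutant groups, lay below every HDAC1-WT library. The part of this in the Hox difference was not tested. Untreated HDAC1–E63R replicate 3 stood apart, with a chi-square per degree of freedom of 55.1 and 61.1 against its 2 replicates, where all other replicate pairs gave 3.36 to 7.07, and values without it are given below where they matter.

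Hox RNA was scarce in every library but was not evenly scarce. The 39 genes together took up 0.00171% to 0.0101% of gene counts and 9253 counts over the 18 libraries, of which Hoxc13 alone held 2435. In untreated HDAC1-WT cells the summed level was 96.2, 87.6 and 103 CPM in the 3 libraries, against 23.5, 25.8 and 32.1 CPM in HDAC1–E63R cells and 30.7, 33.4 and 31.7 CPM in HDAC1–Y48E cells. After OHT the sums were 83.2, 88.3 and 77.1 CPM in the HDAC1-WT line, 20.6, 24.0 and 16.2 CPM in the HDAC1–E63R line and 33.9, 36.0 and 42.5 CPM in the HDAC1–Y48E line. All 6 HDAC1-WT libraries thus lay above all 12 mutant libraries, with or without OHT. The untreated means differed 3.51-fold (HDAC1-WT over HDAC1–E63R) and 2.99-fold (over HDAC1–Y48E), and still 3.21-fold and 3.04-fold when Hoxc13 was left out of the sum. Without untreated HDAC1–E63R replicate 3, the mean sum of that group was 24.7 instead of 27.2 CPM. In bulk RNA, fewer cells that express a gene cannot be told apart from less RNA per cell.

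**Figure D1:**
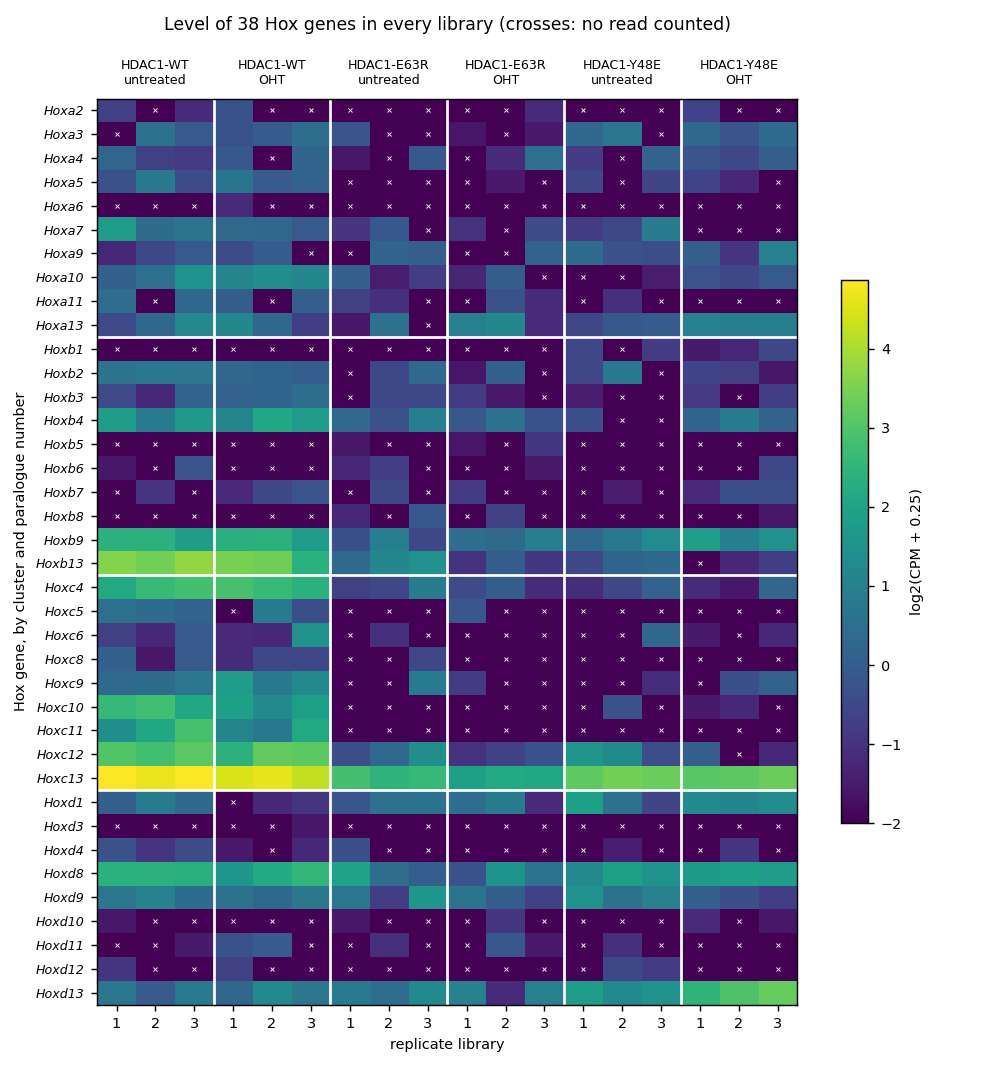
Level of 38 Hox genes (rows, by cluster and paralogue number) in each of the 18 libraries (columns), as log2(CPM + 0.25), with a cross where no read was counted. The brightest cells are Hoxc13 in the 6 HDAC1-WT libraries, and Hoxc10, Hoxc11 and Hoxc5 are mostly crosses in the mutant lines.

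The difference was carried by HoxC and HoxB, and less by HoxA and HoxD. HoxC (chr15:102921103-103036852, mm10) summed to 54.1 ± 4.15 CPM (SD, n = 3) in untreated HDAC1-WT cells, 8.87 ± 2.55 CPM in HDAC1–E63R cells and 12.5 ± 1.03 CPM in HDAC1–Y48E cells. HoxB (chr11:96194316-96368256) summed to 21.2 ± 1.99, 5.29 ± 2.00 and 3.50 ± 0.509 CPM in the same order. No mutant library reached the lowest HDAC1-WT library for either cluster. HoxA (chromosome 6) summed to 10.9 ± 2.09, 6.70 ± 2.01 and 6.57 ± 1.85 CPM, and the HDAC1-WT and HDAC1–E63R libraries overlapped. HoxD (chr2:74668310-74765142) summed to 9.29 ± 0.356, 6.29 ± 1.98 and 9.35 ± 1.92 CPM, with the HDAC1–Y48E libraries on both sides of the HDAC1-WT libraries. Accordingly HoxC made up 56.7% of the summed Hox level in untreated HDAC1-WT cells (range 54.8% to 58.0%), whereas untreated HDAC1–E63R cells had a share of 32.4% and HDAC1–Y48E cells one of 39.2%.

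**Figure D2:**
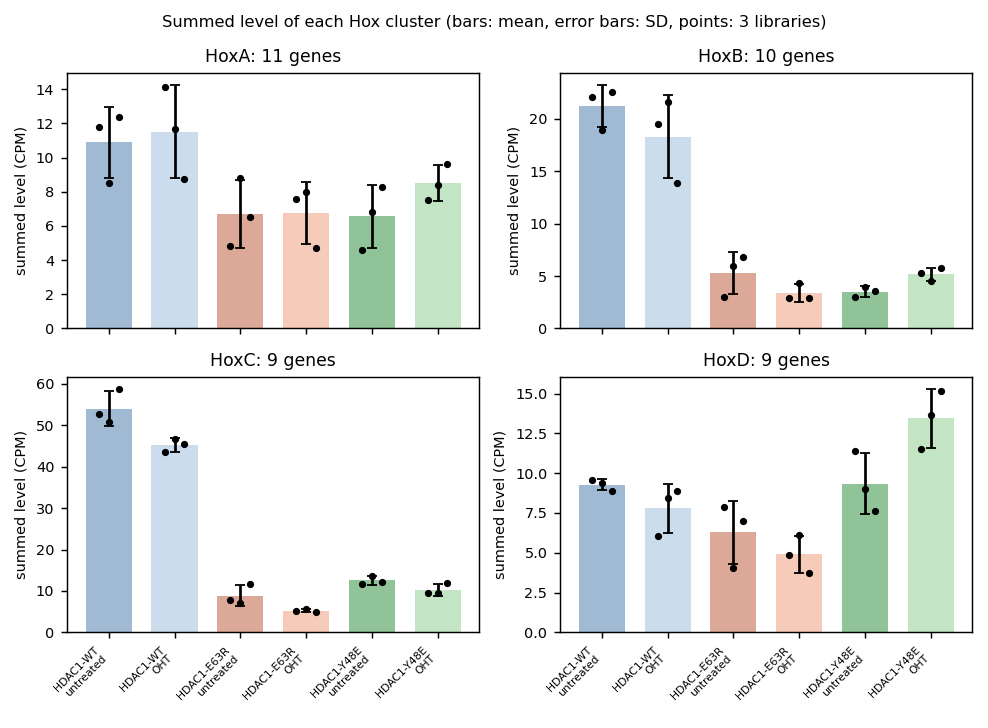
Summed level of each Hox cluster in CPM (bars, mean of 3 libraries; error bars, SD; points, libraries), by line and treatment. For HoxC the 6 HDAC1-WT libraries lie between 43.5 and 58.7 CPM and the mutant libraries between 4.88 and 13.6 CPM, whereas HoxD is highest in OHT-treated HDAC1–Y48E cells.

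By paralogue number, the posterior genes (10 to 13) made up the largest share of Hox RNA in every group. These 12 genes summed to 61.9 ± 6.62 CPM in untreated HDAC1-WT cells, 11.3 to 13.3 CPM in the libraries of HDAC1–E63R cells and 16.1 ± 1.53 CPM in HDAC1–Y48E cells, or 64.8%, 44.5% and 50.5% of the summed Hox level. The 12 anterior genes (1 to 4) summed to 16.1 ± 1.74, 8.68 ± 2.81 and 7.41 ± 0.880 CPM, and the 15 central genes (5 to 9) to 17.5 ± 1.54, 6.49 ± 0.857 and 8.40 ± 1.67 CPM. The lines therefore differed most in the posterior class. Per kb of exon, the scale on which genes can be compared with each other, the order in untreated HDAC1-WT cells was Hoxc13 (11.2 CPM per kb), Hoxc12 (7.37), Hoxb13 (5.39), Hoxc10 (2.89), Hoxc11 (2.24) and Hoxc4 (2.20), and the last 3 did not differ beyond their spread between libraries. Hoxc13 was also the highest in both untreated mutant lines, at 2.45 CPM per kb in HDAC1–E63R cells, where Hoxc12 had 1.28, and at 3.90 CPM per kb in HDAC1–Y48E cells, where Hoxc12 had 1.76.

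Of the 39 genes, 20 exceeded 3 counts in all 3 libraries of untreated HDAC1-WT cells, and 20 after OHT. In HDAC1–E63R cells 10 did so without OHT and 6 with it, and in HDAC1–Y48E cells 11 and 12. A count of 0 in all 3 libraries was found for 5 genes in each HDAC1-WT group, 9 in each HDAC1–E63R group and 10 in each HDAC1–Y48E group. Members that stayed low throughout were Hoxa6, Hoxb5, Hoxd3 and Hoxd10, which never exceeded 3 counts in any library, and Hoxa2, Hoxb1, Hoxb6, Hoxb8, Hoxd4, Hoxd11 and Hoxd12, which exceeded 3 counts in 2 or 3 of the 18 libraries. In all, 19 members had too few counts for the test, with totals of 1 to 102 counts over the 18 libraries.

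The other 20 members entered an edgeR model of all 18 libraries and 18791 genes, in which a gene was called differentially expressed (DEG) below an adjusted p of 0.01 where its level also differed by more than 1 on the log2 scale. Of these 20, 9 exceeded the cutoff of the filter in fewer than 3 mutant libraries and so were tested because of their HDAC1-WT levels. They were Hoxa7, Hoxa10, Hoxb2, Hoxb13, Hoxc4, Hoxc5, Hoxc9, Hoxc10 and Hoxc11. The differences of these 9 between lines were in part built in. Hoxd1 and Hoxa3 exceeded the cutoff in only 1 and 2 HDAC1-WT libraries and so were tested because of their mutant levels. A higher level of these genes in mutant cells was likewise in part built in. The counts below describe the members rather than weigh them. Between untreated HDAC1–E63R and untreated HDAC1-WT cells 7 members were lower and 0 higher, where 4.33% of all tested genes were lower and 3.32% higher (7.65% called). Between untreated HDAC1–Y48E and HDAC1-WT cells again 7 were lower and 0 higher (2.95% of all tested genes were lower and 2.62% higher, 5.57% called). After OHT, 7 members were lower in HDAC1–E63R than in HDAC1-WT cells and 0 higher (3.43% of all tested genes lower and 5.93% higher, 9.36% called). In HDAC1–Y48E cells after OHT 7 were lower (7.23% of all tested genes) and 2 higher (11.0%), where 18.2% of all genes were called. The 3 HDAC1-WT libraries lay above all 3 mutant libraries for 12 members in untreated HDAC1–E63R cells (18.1% of all tested genes) and below them for 0 (17.1%), and for 12 (19.8%) and 1 (20.5%) in untreated HDAC1–Y48E cells. After OHT they lay above for 13 (24.4%) and below for 0 (26.1%) in HDAC1–E63R cells, and above for 12 (28.7%) and below for 2 (31.1%) in HDAC1–Y48E cells. The median log2 difference of the 20 members was -1.64 and -1.50 in untreated HDAC1–E63R and HDAC1–Y48E cells, beside 0 and -0.00415 for all tested genes. The HDAC1-WT libraries are shared by the comparisons of both mutants. Hoxb13, Hoxc4, Hoxc10, Hoxc11 and Hoxc13 were called lower in all 4 comparisons. All of them except Hoxc13 are among the 9 members tested because of their HDAC1-WT levels, which the medians also include.

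Promoter windows are shown for one member that was lower in both mutant lines (Hoxc4), one that was higher in OHT-treated HDAC1–Y48E cells (Hoxd13) and the only member called after OHT (Hoxa7), so that their base composition can be compared. Each runs from 250 bases before to 50 bases after a RefSeq transcription start (GRCm38.p6, on the strand of the gene), and windows were found for 22 of the 39 genes (24 windows). Hoxc4 was the only HoxC gene among them, and Hoxb9, Hoxb13, Hoxc10, Hoxc11, Hoxc12 and Hoxc13 had no window. The figures for Hox windows below therefore leave out most of the genes that differed between lines. Capitals mark matches on either strand to 4 motifs, namely AGGTCA (the half-site of nuclear receptors), TTTATG (the site type of Cdx factors), TATAAA (the TATA box, whose letters can overlap those of its reverse) and CCAAT (the CCAAT box).
Hoxc4, chr15:103034145-103034444, plus strand: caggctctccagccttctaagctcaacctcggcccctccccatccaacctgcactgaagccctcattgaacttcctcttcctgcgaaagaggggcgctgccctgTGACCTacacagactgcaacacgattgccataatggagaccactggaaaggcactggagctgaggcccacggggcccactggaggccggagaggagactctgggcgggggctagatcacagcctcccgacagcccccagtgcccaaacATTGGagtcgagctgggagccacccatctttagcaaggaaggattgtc
Hoxd13, chr2:74667975-74668274, plus strand: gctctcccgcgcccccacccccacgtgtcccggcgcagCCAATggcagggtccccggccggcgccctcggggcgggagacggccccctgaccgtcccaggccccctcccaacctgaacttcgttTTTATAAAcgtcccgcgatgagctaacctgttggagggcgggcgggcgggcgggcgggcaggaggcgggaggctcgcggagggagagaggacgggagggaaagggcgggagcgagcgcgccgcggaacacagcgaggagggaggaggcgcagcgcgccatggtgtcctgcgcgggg
Hoxa7, chr6:52218524-52218823, minus strand: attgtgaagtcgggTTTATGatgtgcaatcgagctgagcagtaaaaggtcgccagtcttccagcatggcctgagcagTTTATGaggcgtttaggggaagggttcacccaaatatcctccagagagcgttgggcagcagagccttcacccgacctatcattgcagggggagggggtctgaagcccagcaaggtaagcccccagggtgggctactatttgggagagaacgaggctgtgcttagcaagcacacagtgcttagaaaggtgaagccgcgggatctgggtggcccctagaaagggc
The Hoxd13 window held 37 CpG dinucleotides, and the Hoxc4 and Hoxa7 windows held 9 each. The median was 14.5 over the 24 Hox windows and 7 over all 32851 windows of the same length. AGGTCA was present in 29.2% of Hox windows and 16.3% of all windows, TTTATG in 20.8% and 11.9%, TATAAA in 16.7% and 13.6%, and CCAAT in 62.5% and 37.4%. These matches are descriptions of the letters and not of bound factors. The Hoxc4 and Hoxa7 starts lie inside the longer gene bounds of the annotation (GENCODE M21).

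Among the HoxC genes, Hoxc13, which acts in hair and nail formation and in the tail end of the axis, was the most abundant Hox RNA. It lies at chr15:102921103-102928814 and shares no exon with another annotated gene. Its level was 29.0, 25.1 and 28.7 CPM in untreated HDAC1-WT cells, 6.93, 5.30 and 5.83 CPM in HDAC1–E63R cells and 8.68, 10.5 and 9.68 CPM in HDAC1–Y48E cells. The 3 lines did not overlap. The log2 difference from HDAC1-WT was -2.19 in HDAC1–E63R cells (SE 0.19, edgeR adjusted p = 1.61e-08) and -1.52 in HDAC1–Y48E cells (SE 0.18, edgeR adjusted p = 1.99e-06). After OHT the levels were 22.1, 24.3 and 18.6 CPM in the HDAC1-WT line, 3.47, 4.38 and 4.10 CPM in the HDAC1–E63R line and 8.31, 8.60 and 9.69 CPM in the HDAC1–Y48E line. The differences at that stage were -2.44 (SE 0.19, edgeR adjusted p = 2.89e-09) and -1.29 (SE 0.18, edgeR adjusted p = 4.24e-06), and all 4 held with each library left out.

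Hoxc12, its neighbour (chr15:102936757-102938609), had 83, 74 and 84 counts in untreated HDAC1-WT cells, 6, 9 and 21 in HDAC1–E63R cells and 25, 19 and 5 in HDAC1–Y48E cells. With OHT the counts were 53, 101 and 97, then 3, 4 and 6, then 8, 0 and 2. Every mutant library was below every HDAC1-WT library. The log2 difference was -2.54 in untreated HDAC1–E63R cells (SE 0.60, edgeR adjusted p = 0.00305). It was -3.28 without untreated HDAC1–E63R replicate 3, and the call was lost without untreated HDAC1–E63R replicate 1 (edgeR adjusted p = 0.0176) or untreated HDAC1-WT replicate 3 (edgeR adjusted p = 0.0122). In untreated HDAC1–Y48E cells it was -2.06 and was not called (edgeR adjusted p = 0.0139), but it was called without the filter (edgeR adjusted p = 0.000447), on only the libraries compared (edgeR adjusted p = 0.000125) and by DESeq2 (adjusted p = 0.00247). After OHT it was called in both mutant lines, at -4.21 (SE 0.68, edgeR adjusted p = 6.39e-05) and -4.54 (SE 0.71, edgeR adjusted p = 1.96e-05), the latter being -6.22 without HDAC1–Y48E OHT replicate 1 and -3.95 without replicate 2. The HDAC1–Y48E values rest on 8, 0 and 2 counts, or 0 and 2 without replicate 1, so their size is uncertain.

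Hoxc10 and Hoxc11, posterior genes of the limb and lower trunk, were near or at 0 in the mutant lines. Hoxc11 (chr15:102954427-102957708) had 26, 45 and 71 counts in untreated and 20, 16 and 48 in OHT-treated HDAC1-WT cells, and 0 counts in all 12 mutant libraries. Set against 3 counts per library, it was at least 14.2-fold lower in untreated HDAC1–E63R cells and at least 13.7-fold lower in untreated HDAC1–Y48E cells (edgeR adjusted p = 0.000283 and 0.000402). With OHT it was at least 9.20-fold and at least 9.04-fold lower (edgeR adjusted p = 0.000532 and 0.000302). Without HDAC1-WT OHT replicate 3, its highest OHT library, the limits fell to 6.12-fold and 6.01-fold and both calls held (edgeR adjusted p = 0.00271 and 0.00166). Hoxc10 (chr15:102966796-102971893) had 63, 73 and 41 counts in untreated and 37, 24 and 39 in OHT-treated HDAC1-WT cells, 0 in all 6 HDAC1–E63R libraries, and 0, 5 and 0 and then 1, 2 and 0 in HDAC1–Y48E cells. It was at least 17.3-fold lower in untreated and at least 11.1-fold lower in OHT-treated HDAC1–E63R cells (edgeR adjusted p = 7.67e-05 and 0.00017). In HDAC1–Y48E cells the ratio was 30.2 (95% counting interval 12.7 to 94.3) without OHT, resting on the 5 counts of replicate 2, and 32.7 (10.9 to 161) with OHT (edgeR adjusted p = 0.00084 and 0.000516). Both calls held without replicate 2 (edgeR adjusted p = 0.000262 and 0.00183), which left 0 counts and 1 count. The exons of Hoxc10 overlap those of Hoxc5 on the same strand over 8.70% of their length, so reads there are uncertain.

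Hoxc4, the most anterior gene of the cluster (chr15:103018934-103036852), had 46, 65 and 68 counts in untreated HDAC1-WT cells, 4, 4 and 14 in HDAC1–E63R cells and 2, 4 and 8 in HDAC1–Y48E cells. With OHT the counts were 74, 66 and 56, then 6, 8 and 2, then 2, 1 and 11. No mutant library came near the lowest HDAC1-WT library. The log2 difference was -2.82 in untreated HDAC1–E63R cells (SE 0.64, edgeR adjusted p = 0.00205). It was -3.75 without replicate 3 of that group, and the call was lost without its replicate 1 (edgeR adjusted p = 0.0132) or untreated HDAC1-WT replicate 3 (edgeR adjusted p = 0.0107). It was -3.43 in untreated HDAC1–Y48E cells (SE 0.67, edgeR adjusted p = 0.000723), or -4.02 without replicate 3. After OHT it was -3.60 in HDAC1–E63R cells (SE 0.67, edgeR adjusted p = 0.000262) and -3.76 in HDAC1–Y48E cells (SE 0.68, edgeR adjusted p = 0.000102), the latter -5.27 without replicate 3. Without that replicate only 2 and 1 counts remain in OHT-treated HDAC1–Y48E cells, so the size of this difference is uncertain.

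The central HoxC genes were low in HDAC1-WT cells and mostly at or near 0 elsewhere, and none was called by edgeR in the model of all 18 libraries. Hoxc9 had 11, 12 and 14 counts in untreated and 34, 16 and 25 in OHT-treated HDAC1-WT cells. In HDAC1–E63R cells it had 0, 0 and 13 without OHT, the 13 being in the library that stood apart, and 4, 0 and 0 with OHT. In HDAC1–Y48E cells it had 0, 0 and 2, then 0, 6 and 10. Between OHT-treated HDAC1–E63R and HDAC1-WT cells its log2 difference was -4.16 (SE 1.33, edgeR adjusted p = 0.0216), which was called without the filter on low counts (edgeR adjusted p = 0.00261) and when only the libraries compared were fitted (edgeR adjusted p = 0.000325). Hoxc5 had 13, 12 and 9 and then 0, 17 and 6 counts in HDAC1-WT cells, and outside them only 8 counts in HDAC1–E63R OHT replicate 1. Hoxc6 had 4, 2 and 7, then 2, 2 and 30 counts in HDAC1-WT cells, so that a single library held most of its reads, 0, 2 and 0 and then 0 throughout in HDAC1–E63R cells, and 0, 0 and 9 and then 1, 0 and 2 in HDAC1–Y48E cells. Hoxc8 never exceeded 9 counts. Part of the Hoxc9 transcript matches unrelated transcripts at about 95% identity over stretches of 100 to 122 bases, so its counts are uncertain.

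**Figure D3:**
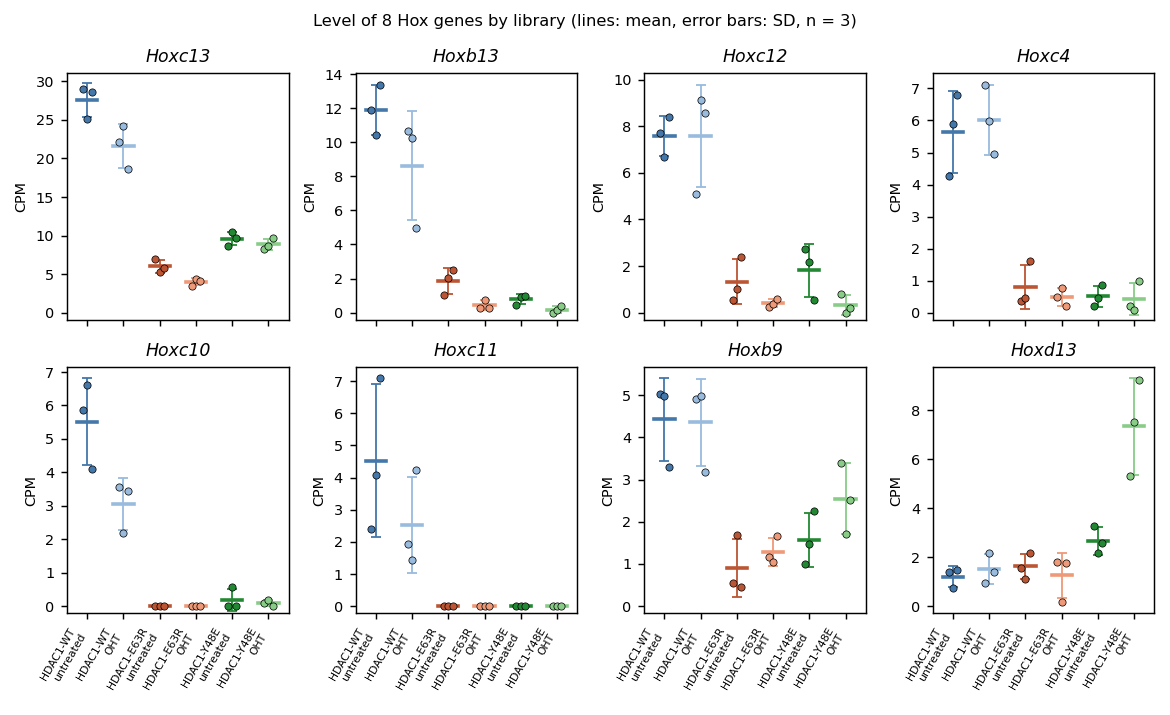
Level of 8 Hox genes in CPM in each library (points), with the mean (line) and SD (error bar) of the 3 libraries of each group. The first 6 panels, Hoxc13 to Hoxc11, show all HDAC1-WT libraries above all mutant libraries, for Hoxb9 an OHT-treated HDAC1–Y48E library reaches the lowest HDAC1-WT libraries, and Hoxd13 is highest in OHT-treated HDAC1–Y48E cells.

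In HoxB all 4 tested members had a log2 difference below 0 in both untreated mutant lines, and Hoxb13 and Hoxb9 were called in HDAC1–E63R cells and Hoxb13 and Hoxb4 in HDAC1–Y48E cells. Hoxb13 (chr11:96194316-96197447), which stands apart from its cluster and acts in the tail bud and prostate, had 11.9, 10.4 and 13.4 CPM in untreated HDAC1-WT cells (128, 115 and 134 counts). HDAC1–E63R cells had 11, 18 and 22 counts and HDAC1–Y48E cells 4, 8 and 9. With OHT the counts were 111, 113 and 56 in the HDAC1-WT line, 3, 8 and 3 in the HDAC1–E63R line and 0, 2 and 4 in the HDAC1–Y48E line. The HDAC1-WT libraries did not overlap those of either mutant. The log2 difference was -2.69 in untreated HDAC1–E63R cells (SE 0.45, edgeR adjusted p = 0.000114) and -3.92 in untreated HDAC1–Y48E cells (SE 0.50, edgeR adjusted p = 5.98e-06). With OHT it was -4.29 (SE 0.53, edgeR adjusted p = 2.14e-06; -4.94 without HDAC1–E63R replicate 2) and -5.45 (SE 0.60, edgeR adjusted p = 1.67e-07; -6.33 without HDAC1–Y48E replicate 3). The HDAC1–Y48E values rest on 0, 2 and 4 counts, or 0 and 2 without replicate 3, so their size is uncertain. All 4 calls held with each library left out.

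Hoxb9, a gene of the thoracic region (chr11:96271457-96276595), had 54, 55 and 33 counts in untreated and 51, 55 and 36 in OHT-treated HDAC1-WT cells. HDAC1–E63R cells had 6, 15 and 4 and then 14, 11 and 17 counts, and HDAC1–Y48E cells 9, 13 and 21 and then 34, 19 and 28. It was lower in untreated HDAC1–E63R cells (log2 difference -2.30, SE 0.51, edgeR adjusted p = 0.00179), by -3.09 without replicate 2 of that group, and the call was lost without its replicate 1 (edgeR adjusted p = 0.0124). With OHT the difference was -1.75 (SE 0.49, edgeR adjusted p = 0.00873), and the call held only without HDAC1-WT replicate 3, the other 5 libraries left out in turn giving an edgeR adjusted p of 0.0169 to 0.0427. In untreated HDAC1–Y48E cells the difference was -1.48 and not called (edgeR adjusted p = 0.0323), whereas DESeq2 called it (adjusted p = 0.00867).

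Hoxb4, an anterior gene also used in blood progenitors (chr11:96318267-96321638), had 36, 18 and 30 counts in untreated and 20, 45 and 36 in OHT-treated HDAC1-WT cells. HDAC1–E63R cells had 11, 5 and 15, then 8, 13 and 6, and HDAC1–Y48E cells had 5, 0 and 0, then 9, 17 and 10. Untreated HDAC1–Y48E cells were the lowest group, at a log2 difference of -3.77 (SE 0.86, edgeR adjusted p = 0.0027). All 5 counts of that group came from replicate 1, and without it the group was at 0 (edgeR adjusted p = 0.000362). The call was lost without its replicate 2 or 3 (edgeR adjusted p = 0.0161 and 0.0165) or HDAC1-WT replicate 1 (edgeR adjusted p = 0.0114). Hoxb2, a hindbrain gene, had 14, 16 and 14 counts in untreated and 10, 10 and 9 in OHT-treated HDAC1-WT cells, 0, 4 and 9 and then 1, 9 and 0 in HDAC1–E63R cells, and 4, 13 and 0 and then 4, 4 and 1 in HDAC1–Y48E cells. It was not called, and 27.3% of its exon length overlaps the antisense gene Hoxb3os, whose reads cannot be told apart from its own without strand information. The use of strand is not given in the sources used here.

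HoxA sums differed less between the lines than those of HoxB and HoxC. In OHT-treated HDAC1–E63R cells HoxA had the highest mean sum, 6.76 ± 1.81 CPM, beside 3.40 CPM for HoxB, 5.20 for HoxC and 4.89 for HoxD. Hoxa13, the most posterior HoxA gene, had 5, 11 and 21 and then 21, 11 and 4 counts in HDAC1-WT cells, 1, 11 and 0 and then 21, 21 and 2 in HDAC1–E63R cells, and 4, 6 and 7 and then 18, 19 and 19 in HDAC1–Y48E cells, and was not called in any comparison.

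Hoxa10, used in the uterus and hindlimb (chr6:52231197-52240854), had 9, 13 and 26 counts in untreated and 20, 26 and 23 in OHT-treated HDAC1-WT cells. HDAC1–E63R cells had 9, 1 and 3 and then 2, 8 and 0, and HDAC1–Y48E cells 0, 0 and 1 and then 6, 5 and 8. It was lower in untreated HDAC1–Y48E than in HDAC1-WT cells, with a ratio of 41.0 (95% counting interval 7.02 to 1653) that rests on a single count (edgeR adjusted p = 0.00495). The call was lost without any one of the 3 HDAC1–Y48E libraries (edgeR adjusted p = 0.0321, 0.0307 and 0.0123 for replicates 1, 2 and 3) or without HDAC1-WT replicate 3 (edgeR adjusted p = 0.0286). Hoxa3 had at most 14 counts in a library and was not called, and Hoxa4, Hoxa5, Hoxa9 and Hoxa11, which were not tested, had at most 12, 16, 20 and 12.

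HoxD was the cluster in which a gene stood higher in a mutant line. Hoxd13, a gene of the digits and hindgut (chr2:74668310-74671599), had 15, 8 and 15 counts in untreated and 10, 24 and 16 in OHT-treated HDAC1-WT cells, and 17, 10 and 19 and then 22, 2 and 18 in HDAC1–E63R cells. In HDAC1–Y48E cells it had 30, 19 and 24 counts without OHT and 53, 83 and 103 with it, or 5.31, 7.51 and 9.25 CPM. The OHT-treated HDAC1–Y48E libraries were the highest 3 of the 18. Against OHT-treated HDAC1-WT cells the log2 difference was 2.27 (SE 0.53, edgeR adjusted p = 0.00146), and the call was lost without HDAC1-WT replicate 1 (edgeR adjusted p = 0.0112) or HDAC1–Y48E replicate 3 (edgeR adjusted p = 0.0102). Without OHT the difference was 1.15 and not called (edgeR adjusted p = 0.155).

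Hoxd1, the anterior end of the cluster (chr2:74762980-74765142), had 9, 17 and 10 counts in untreated and 0, 2 and 3 in OHT-treated HDAC1-WT cells. It had 7, 11 and 11 and then 14, 17 and 2 counts in HDAC1–E63R cells, and 32, 11 and 4 and then 21, 21 and 25 in HDAC1–Y48E cells. After OHT it was higher in HDAC1–Y48E than in HDAC1-WT cells (log2 difference 3.68, SE 0.94, edgeR adjusted p = 0.00293; 4.32 without HDAC1-WT replicate 3). The call was lost without HDAC1-WT replicate 1 (edgeR adjusted p = 0.0168) or 2 (edgeR adjusted p = 0.0115). The HDAC1-WT group it is set against had 0 to 3 counts per library. Since Hoxd1 was tested because of its levels in the mutant lines, this difference was in part built in. Hoxd8, a trunk gene, had 54, 56 and 47 and then 29, 48 and 63 counts in HDAC1-WT cells, 39, 10 and 7 and then 7, 27 and 13 in HDAC1–E63R cells, and 19, 31 and 24 and then 31, 38 and 36 in HDAC1–Y48E cells. Its log2 difference in untreated HDAC1–E63R cells was -1.38 and not called (edgeR adjusted p = 0.0452), but was -2.34 and called without replicate 1 of that group (edgeR adjusted p = 0.00356). With OHT it was -1.53 and not called (edgeR adjusted p = 0.0281), but was -2.20 and called without HDAC1–E63R replicate 2 (edgeR adjusted p = 0.00929). Hoxd9 had 15, 20 and 11 and then 13, 11 and 16 counts in HDAC1-WT cells, 15, 3 and 24 and then 16, 8 and 4 in HDAC1–E63R cells, and 23, 11 and 16 and then 8, 6 and 4 in HDAC1–Y48E cells, and was not called. Hoxd3 and Hoxd4 share 62.3% and 52.3% of their exon length with other annotated genes on the same strand, so their low counts are uncertain.

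Within a line, few Hox genes were called after OHT. In the HDAC1-WT line 0 of 20 tested members were called after OHT by edgeR, where 0.0532% of all tested genes were (0.0373% higher and 0.0160% lower), and 1 member, Hoxd1, had an unadjusted p under 0.05. In the HDAC1–E63R line 0 members were called beside 5.91% of all genes (4.74% higher and 1.18% lower), with 3 at an unadjusted p under 0.05. In the HDAC1–Y48E line 1 member was lower and 0 higher, beside 5.84% and 10.8% of all genes (16.6% called in either direction), with 7 at an unadjusted p under 0.05. DESeq2 called 0, 1 and 4 members in the 3 lines. The median log2 fold change of the 20 members was -0.15, -0.38 and 0.10, beside 0, 0.03 and 0.05 for all tested genes. The HoxC sum was lower after OHT, without overlap, in HDAC1-WT (54.1 to 45.2 CPM) and HDAC1–E63R cells (8.87 to 5.20 CPM). In HDAC1–Y48E cells the sums of HoxB (3.50 to 5.19 CPM), HoxD (9.35 to 13.4 CPM) and all 39 members (31.9 to 37.4 CPM) were higher, without overlap. The other cluster and total sums overlapped, and the sums were not tested.

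The member called after OHT was Hoxa7, a trunk gene (chr6:52214491-52221854). It had 3, 4 and 15 counts in untreated HDAC1–Y48E cells and 0 in all 3 libraries after OHT, at least 2.85-fold lower (edgeR adjusted p = 0.00568). In HDAC1-WT cells it had 35, 12 and 13 and then 11, 11 and 8 counts, and in HDAC1–E63R cells 3, 6 and 0 and then 3, 0 and 5. Without untreated replicate 3 the limit was 1.40-fold and the call was lost (edgeR adjusted p = 0.0348), and it was also lost without any one OHT replicate (edgeR adjusted p = 0.02, 0.0212 and 0.0216). Set against OHT-treated HDAC1-WT cells it was at least 3.28-fold lower (edgeR adjusted p = 0.00393), a call lost without HDAC1-WT replicate 1 (edgeR adjusted p = 0.0102) or any one HDAC1–Y48E library (edgeR adjusted p = 0.0154 to 0.0165). Hoxaas3, an antisense gene, overlaps 20.4% of its exon length.

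The values of further members after OHT in HDAC1–Y48E cells did not reach the threshold and are given as descriptions. Hoxd13 had a log2 fold change of 1.45 after OHT (SE 0.51, edgeR adjusted p = 0.0258), and all 3 OHT libraries were above all 3 untreated ones. Hoxb4 and Hoxa10, which were close to 0 in untreated HDAC1–Y48E cells, had counts in all 3 OHT libraries (edgeR adjusted p = 0.0243 and 0.0266), and Hoxb4 was called without untreated replicate 1 (edgeR adjusted p = 0.00126). Hoxb13 gave -1.99 (SE 0.73, edgeR adjusted p = 0.0321) with groups that did not overlap, and Hoxc12 gave -2.48 (SE 0.75, edgeR adjusted p = 0.0107) with groups that did. Hoxc12 was called without untreated replicate 3 (edgeR adjusted p = 0.0034) or OHT replicate 1 (edgeR adjusted p = 0.00185). Of the 20 tested members, the groups did not overlap in this comparison for 4 that were higher after OHT and 3 that were lower. Over all tested genes the shares were larger, at 31.8% and 27.5%. Hoxa13 was among the 4 higher members (log2 fold change 1.46, edgeR adjusted p = 0.224) and Hoxd9 among the 3 lower ones (-1.68, edgeR adjusted p = 0.0635). The same count was 0 and 2 in HDAC1–E63R cells (21.2% and 15.7%) and 1 and 5 in HDAC1-WT cells (9.61% and 9.64%). In the HDAC1–E63R line Hoxb13 gave -2.06 (SE 0.57, edgeR adjusted p = 0.0107; -1.78 without untreated replicate 3) and Hoxc13 -0.60 (SE 0.20, edgeR adjusted p = 0.0323). Hoxb13 was called there without untreated replicate 1 (edgeR adjusted p = 0.00535) or OHT replicate 2 (edgeR adjusted p = 0.0087). In the HDAC1-WT line the same genes gave -0.47 (SE 0.40) and -0.35 (SE 0.17), neither called (edgeR adjusted p = 0.794 and 0.516).

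**Figure D4:**
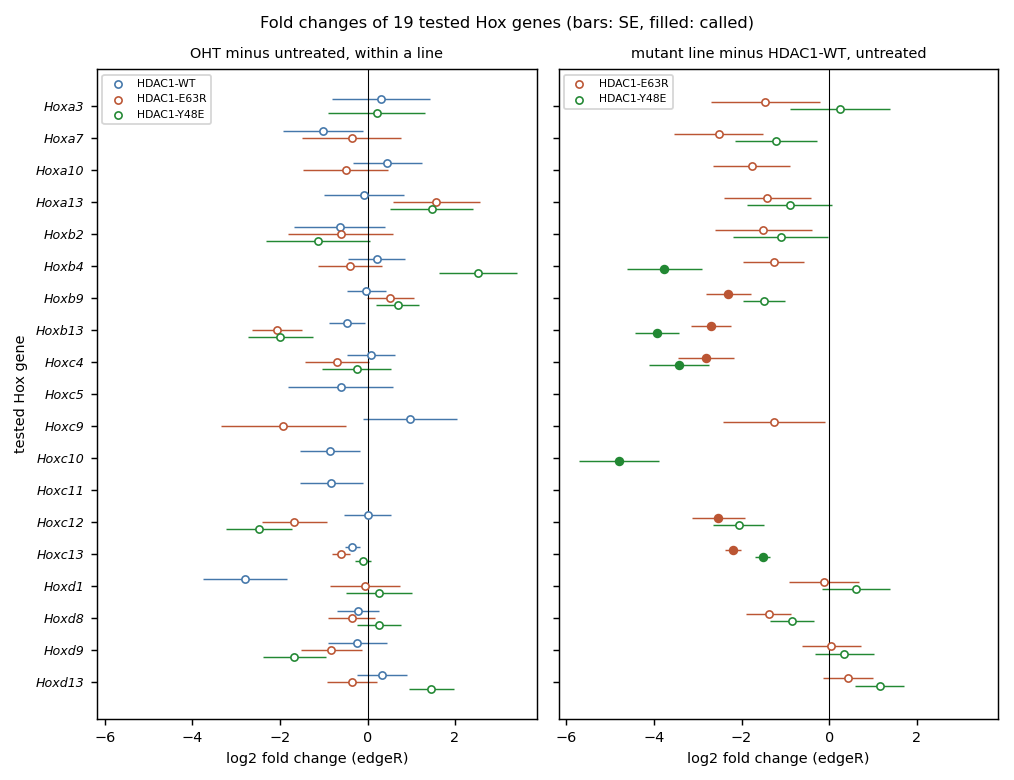
Log2 fold change (edgeR) of 19 tested Hox genes with its SE, for OHT against untreated cells of the same line (left) and for untreated mutant against untreated HDAC1-WT cells (right). Filled points are called, and points whose lower group had 3 or fewer counts in total are left out, among them Hoxa7 in HDAC1–Y48E cells; on the left no plotted point is filled, and on the right the filled points are all below 0.

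The OHT effect of a Hox gene was not shown to differ between lines. Tested as an interaction, 0 of 20 members were called between HDAC1–E63R and HDAC1-WT (1.68% of all genes, 1.25% with a higher and 0.436% with a lower effect), 0 between HDAC1–Y48E and HDAC1-WT (8.62%, with 4.65% and 3.97%) and 0 between HDAC1–Y48E and HDAC1–E63R (1.31%, with 0.319% and 0.990%), with 2, 5 and 5 members at an unadjusted p under 0.05. DESeq2 called 0 in each. The lowest adjusted p was that of Hoxc12 between HDAC1–Y48E and HDAC1-WT (difference of log2 fold changes -2.48, SE 0.92, edgeR adjusted p = 0.0584). For Hoxc13 the difference from HDAC1-WT was -0.25 (SE 0.26) for HDAC1–E63R and 0.23 (SE 0.25) for HDAC1–Y48E.

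Genes that act with or upstream of the Hox genes were counted in the same fits. Beside their counts stand the shares over all tested genes, which after OHT were 4.74% higher and 1.18% lower in the HDAC1–E63R line and 10.8% and 5.84% in the HDAC1–Y48E line. Between the untreated lines they were 3.32% and 4.33% for HDAC1–E63R and 2.62% and 2.95% for HDAC1–Y48E. Between the OHT-treated lines they were 5.93% and 3.43% for HDAC1–E63R and 11.0% and 7.23% for HDAC1–Y48E. Among 19 tested genes of the retinoic acid pathway and the Cdx family, OHT called 0 in HDAC1-WT cells, 4 higher and 0 lower in HDAC1–E63R cells, and 5 higher and 1 lower in HDAC1–Y48E cells. Aldh1a2, which makes retinoic acid, rose by a log2 fold change of 3.44 (SE 0.70, edgeR adjusted p = 0.00102) and 3.71 (SE 0.67, edgeR adjusted p = 0.000113) in the mutant lines, from 1, 4 and 7 to 48, 39 and 69 counts and from 2, 10 and 6 to 112, 82 and 87 counts. Aldh1a1, a related enzyme, rose from 0 counts in all untreated libraries of both mutant lines to 16, 29 and 2 counts in HDAC1–E63R cells and 33, 32 and 29 in HDAC1–Y48E cells, at least 4.46-fold and at least 8.86-fold (edgeR adjusted p = 0.00556 and 0.00071). Crabp2, which carries retinoic acid to its receptor, rose by 1.69 and 2.43 (edgeR adjusted p = 4.35e-05 and 1.10e-07). In HDAC1–Y48E cells the receptor genes Rxra (1.08, edgeR adjusted p = 9.61e-08) rose and Rara (-1.05, edgeR adjusted p = 7.53e-06) fell. Against untreated HDAC1-WT cells, 3 of the 19 genes were higher and 0 lower in untreated HDAC1–E63R cells, and 1 higher and 0 lower in untreated HDAC1–Y48E cells. Between OHT-treated lines 5 were higher and 1 lower in HDAC1–E63R cells, and 7 higher and 3 lower in HDAC1–Y48E cells.

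Of 9 Hox cofactors of the Pbx, Meis and Pknox families, all tested, OHT called 0 in HDAC1-WT and HDAC1–E63R cells and 2 higher in HDAC1–Y48E cells, Meis3 (2.12, edgeR adjusted p = 0.00014) and Pknox2 (1.61, edgeR adjusted p = 0.00124). Without OHT, 3 were lower in HDAC1–E63R and 2 in HDAC1–Y48E than in HDAC1-WT cells, and 0 were higher. Between OHT-treated lines 3 cofactors were lower and 0 higher in HDAC1–E63R cells, and 1 was higher and 1 lower in HDAC1–Y48E cells. Of 32 Polycomb genes, OHT called 0 in HDAC1-WT cells, 1 lower in HDAC1–E63R cells (Ezh1, -1.02, edgeR adjusted p = 1.75e-05), and 2 higher and 2 lower in HDAC1–Y48E cells. The last were the PRC1 subunits Cbx8 (1.66, edgeR adjusted p = 0.00714) and Phc2 (1.41, edgeR adjusted p = 8.78e-09), which rose, and Phc1 (-2.22, edgeR adjusted p = 1.31e-11) and the methyltransferase Ezh1 (-1.13, edgeR adjusted p = 1.32e-06), which fell. Between untreated lines 1 Polycomb gene was higher and 1 lower in HDAC1–E63R cells, and 1 was higher in HDAC1–Y48E cells. Between OHT-treated lines 2 Polycomb genes were higher and 0 lower in HDAC1–E63R cells, and 3 were higher and 1 lower in HDAC1–Y48E cells. Of 12 MLL and UTX genes 0 were called after OHT in any line. Against HDAC1-WT cells of the same treatment, 0 were called in HDAC1–E63R cells. In HDAC1–Y48E cells 1 was lower and 0 higher, without OHT and with it.

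Genes beside and within the clusters were also counted, beside the shares over all tested genes given above for the same comparisons. Of 21 genes that flank the clusters, OHT called 0 in HDAC1-WT cells, 1 higher in HDAC1–E63R cells (Calcoco2, 1.12, edgeR adjusted p = 5.39e-05) and 3 lower in HDAC1–Y48E cells (Ttll6, Smug1 and Nfe2l2, at -1.70, -1.63 and -1.08), and in each untreated mutant line 1 was higher and 2 lower than in HDAC1-WT cells. Between OHT-treated lines 1 flanking gene was higher and 2 lower in HDAC1–E63R cells, and 2 were higher and 3 lower in HDAC1–Y48E cells. Of 18 tested homeobox genes of the same superclass outside the clusters, 1 rose after OHT (Msx2 in HDAC1–E63R cells, 2.36, edgeR adjusted p = 0.00331). In the untreated lines 2 were higher and 2 lower in HDAC1–E63R cells and 2 higher and 1 lower in HDAC1–Y48E cells. Against OHT-treated HDAC1-WT cells 4 were higher and 2 lower in HDAC1–E63R cells, and 6 higher and 1 lower in HDAC1–Y48E cells. Of 18 listed non-coding genes of the clusters 17 were in the tables and 5 could be tested, and 0 were called after OHT in any line. Between lines, 1 was higher and 0 lower in HDAC1–E63R than in HDAC1-WT cells, without OHT and with it. In HDAC1–Y48E cells 0 were called without OHT, and 0 were higher and 1 lower with it. The 17 genes summed to 13.4 to 14.8 CPM in untreated HDAC1-WT, 11.6 to 14.6 CPM in HDAC1–E63R and 6.04 to 8.82 CPM in HDAC1–Y48E libraries. Hotair, transcribed within HoxC, had 12, 4 and 10 counts in untreated HDAC1-WT cells, 2, 0 and 3 after OHT, and 2 counts in all 12 mutant libraries together. The microRNA genes Mir10a, Mir10b, Mir196a-2, Mir196b and Mir615 had no counts in any group.

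Markers of other cell types also differed between the lines, counted beside the shares over all tested genes given above for the same comparisons. The 8 trophoblast markers summed to 225 to 248 CPM in untreated HDAC1-WT libraries, 93.1 to 104 CPM in HDAC1–E63R and 100 to 111 CPM in HDAC1–Y48E libraries, and 3 of 8 were lower and 1 higher in each mutant line. The 8 primitive endoderm markers summed to a median of 42.4, 17.2 and 21.3 CPM, with 3 and 2 of 6 tested lower and Afp at 0 in all 3 groups. The 10 markers of posterior mesoderm and primitive streak summed to 20.9 to 30.1, 11.7 to 17.0 and 11.5 to 15.2 CPM, with 1 of 6 tested lower in each mutant line and Msgn1 at 0 in all 3 groups. The 8 neural progenitor markers summed to 28.4 to 31.7, 47.7 to 49.2 and 51.5 to 54.5 CPM, with 2 and 1 of 4 tested higher, and the 8 fibroblast markers to 25.3 to 28.3, 12.9 to 19.6 and 25.6 to 28.6 CPM, with 1 and 0 of 4 tested lower. Of the 8 ESC markers 2 were lower in untreated HDAC1–E63R than in untreated HDAC1-WT cells, and 0 in untreated HDAC1–Y48E cells. Compared with untreated cells of the same line, 5 were lower after OHT in the HDAC1–Y48E line and 0 in the other lines. Compared with OHT-treated HDAC1-WT cells, 3 of 8 were lower in OHT-treated HDAC1–E63R and 7 of 8 in OHT-treated HDAC1–Y48E cells, and 0 were higher in either. The same sums were taken after OHT. The trophoblast markers summed to 250.4 to 282 CPM in HDAC1-WT, 178 to 191 CPM in HDAC1–E63R and 144 to 155 CPM in HDAC1–Y48E libraries, and 3 of 8 were higher and 1 lower in each mutant line than in HDAC1-WT cells. The primitive endoderm markers summed to 36.1 to 42.1, 22.5 to 27.4 and 48.2 to 53.5 CPM, with 3 of 6 lower in HDAC1–E63R cells, and 2 higher and 2 lower in HDAC1–Y48E cells. The posterior mesoderm and primitive streak markers summed to 29.5 to 36.1, 23.1 to 24.3 and 24.1 to 29.4 CPM, with 1 of 6 lower in HDAC1–E63R and 1 higher in HDAC1–Y48E cells. The neural markers summed to 24.4 to 34.5, 43.3 to 48.9 and 66.2 to 74.1 CPM. Of 4 tested neural markers, 2 were higher and 1 lower in HDAC1–E63R cells, and 1 was higher and 1 lower in HDAC1–Y48E cells. The fibroblast markers summed to at most 43.1, 59.5 and 96.7 CPM, where 1 of 4 tested was higher in each mutant line. All these OHT-treated comparisons stand beside 5.93% of all tested genes higher and 3.43% lower for HDAC1–E63R and 11.0% and 7.23% for HDAC1–Y48E. The part of these cells in the Hox difference was not tested.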

How the data were processed

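RNA was sequenced from 18 libraries of mouse ESCs (6 groups of 3, from the sample labels). The deposited values are raw read counts per gene, which the authors made with HISAT2 2.1.0, SAMtools 1.9 and HTSeq on mm10, per the submitters' processing notes. The annotation and the strand setting are not given in the sources used here. Rows that name no gene held 59.4% to 61.2% of the entries and were left out. Counts were fitted over all genes that passed filterByExpr (18791) in 1 model of group means with edgeR 4.0.16 (limma 3.58.1, R 4.3.3), using TMM factors and the quasi-likelihood test. P-values were Benjamini-Hochberg adjusted over all tested genes, and calls needed a value below 0.01 together with a difference of more than 1 on the log2 scale. Lower limits of folds set 3 counts in each library at 0, and ratios carry exact 95% counting intervals. Every library's value is given for Hox genes that were called or averaged at least 1 CPM in a group. Genes of the other lists are named where OHT called them, the groups did not overlap and the higher mean was at least 1 CPM, at most 4 per list and line. Counts and sums include 1 Hox gene and 1 gene of the retinoic acid list that are not reported here singly. The members and lists were chosen with earlier results of these data known. Gene positions come from GENCODE M21 and promoter sequences from RefSeq. Results were recomputed with a replicate block, without the filter, with factors by relative log expression, on only the libraries compared, by the Wald test of DESeq2 1.42.0 and with each library left out. Alternatives for single genes between lines were added after seeing the data. The scripts were tested on simulated data.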

Additional observations from a re-analysis of the deposited data

How the results depend on the processing

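No result changed direction with a call under any alternative. Lower calls after OHT in HDAC1–E63R cells numbered 1 instead of 0 without the filter and 1 with DESeq2, Hoxb13 in both, and 0 to 1 with each library left out. In HDAC1–Y48E cells, higher calls numbered 1 (Hoxd13) when only the libraries compared were fitted and 2 (Hoxb4 and Hoxd13) with DESeq2, and 0 to 1 with each library left out. Lower calls there numbered 2 (Hoxa7 and Hoxc12) without the filter and 2 with DESeq2, 0 when only the libraries compared were fitted, where Hoxa7 did not pass the filter, 0 with a replicate block and 0 to 1 with each library left out. Interaction calls between HDAC1–Y48E and HDAC1-WT numbered 0 to 1 with each library left out. Between untreated HDAC1–E63R and HDAC1-WT cells 4 members instead of 7 were called (Hoxb13, Hoxc10, Hoxc11 and Hoxc13) when only the libraries compared were fitted, and 5 to 7 with each library left out. OHT-treated HDAC1–E63R against HDAC1-WT cells had 10 calls instead of 7 on only the libraries compared (Hoxa10, Hoxb4 and Hoxc9 added), 9 with DESeq2 (Hoxa10 and Hoxb4 added) and 7 without the filter (Hoxc9 in place of Hoxb9). Untreated HDAC1–Y48E against HDAC1-WT cells had 9 instead of 7 with DESeq2 (Hoxb9 and Hoxc12 added), 8 without the filter (Hoxc12 added) and 7 on only the libraries compared, where Hoxc12 was added and Hoxa10 did not pass the filter. OHT-treated HDAC1–Y48E against HDAC1-WT cells had 8 instead of 9 in that setting, where Hoxa7 did not pass the filter. Replicate numbers were shared between groups, but deviations of same-numbered libraries correlated at only -0.0194 to 0.0441 over 9 pairs, and 7 of 9 correlated best with their own number. The replicate block lost Hoxa7 after OHT in HDAC1–Y48E cells (edgeR adjusted p = 0.0105) and Hoxb9 between OHT-treated HDAC1–E63R and HDAC1-WT cells (edgeR adjusted p = 0.0154), which left 6 instead of 7 calls. Counts of 0 to 3 in most mutant libraries limit what can be said of single genes there.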
